A study of Mus musculus with 2 samples.

Results

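The miRNA cluster that runs from Mir379 to Mir410 and on to Mir3072 lies on the plus strand of mouse chromosome 12, in the distal part of the Dlk1-Dio3 imprinted domain. All miRNA genes of the deposited tables with a start between 109.7 and 109.76 Mb on that strand (mm10, GENCODE M21) were taken as its members, which gave 39 of 2202 genes. From the start of Mir379 at base 109709060 to the end of Mir3072 at base 109747960 they span 38.9 kb. The libraries came from adrenal glands of 2 female B6CASTF1/J mice aged 25 days, first-generation hybrids of a laboratory strain with the wild-derived CAST strain. Both mice were of 1 group, with no treatment or engineered allele given, and 1 library per mouse was made from small RNA under 30 nucleotides. The labels number the mice separately but give both the same donor identifier. The differences between libraries 1 and 2 below therefore compare these 2 libraries and no conditions, and what separates mice, dissections and library preparations cannot be told apart.

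In placental mammals the genes of this cluster are transcribed together from the maternally inherited chromosome, as one long transcript that is cut into many hairpins. Each hairpin gives a pair of mature miRNAs, named 5p and 3p after its arms, and each mature miRNA recognises target messenger RNAs mainly through its seed, bases 2 to 8. In neurons the cluster is activated by Mef2 factors, and miR-134 from it limits the size of dendritic spines through the kinase Limk1. Mice that lack the maternal cluster have impaired metabolic adaptation at birth. The adrenal gland joins a steroid-producing cortex to a medulla of chromaffin cells, which come from the neural crest and share features with sympathetic neurons. Parental alleles were not examined here.

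RefSeq (GRCm38.p6) held 36 of the 39 hairpins and 71 mature arms of 38 members. Hairpin entries were missing for Mir666, Gm27379 and Mir544, and no mature arm was matched for Gm27379. The 71 arms carried 65 distinct seeds, so most members differed in the bases that choose targets. Among the matched arms 6 seeds occurred in 2 members each, over 11 members in all. Both arms were matched for 33 members only. For Mir376c, Mir487b, Mir539, Mir485 and Mir453 an arm was missing, so shared seeds can have been missed. The Mir539 hairpin holds the letters AUACAAG, the seed of miR-381-3p, outside its matched arm. The arms with the 6 seeds are shown as places where members of the cluster could share targets, and the capitals mark the seed.
miR-379-5p: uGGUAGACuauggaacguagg
miR-1193-5p: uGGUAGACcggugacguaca
miR-379-3p: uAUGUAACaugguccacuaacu
miR-411-3p: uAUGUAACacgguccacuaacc
miR-1197-5p: cGGUUGACcaugguguguacg
miR-758-5p: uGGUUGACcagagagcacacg
miR-494-5p: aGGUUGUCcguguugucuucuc
miR-410-5p: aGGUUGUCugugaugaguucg
miR-376c-5p: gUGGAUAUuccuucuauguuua
miR-376b-5p: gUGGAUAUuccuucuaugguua
miR-453: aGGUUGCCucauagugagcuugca
miR-496a-5p: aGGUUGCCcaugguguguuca
Each arm shares its seed with the one listed directly before or after it. The 2 genes whose 3p arms share AUGUAAC, Mir379 and Mir411, were also the most abundant members, as given below. Their 5p arms have different seeds. The arm miR-379-5p shares its seed with miR-1193-5p, from a gene far lower in reads. The arm miR-411-5p shares AGUAGAC with no other matched arm of the cluster. None of the 6 seeds was found in a RefSeq mature miRNA outside the cluster. Of the other seeds, 11 were, among them that of miR-411-5p in miR-7229-5p, that of miR-329-3p in miR-362-3p and that of miR-410-3p in miR-344d-3p and miR-344e-3p.

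Arms of 6 of the most abundant members are shown next, beside those of Mir379 and the 3p arm of Mir411 above, as examples of how far the seeds of high members differ. The seed is again in capitals.
miR-411-5p: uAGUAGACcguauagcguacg
miR-541-5p: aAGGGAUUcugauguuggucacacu
miR-541-3p: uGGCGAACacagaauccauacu
miR-382-5p: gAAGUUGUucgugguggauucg
miR-382-3p: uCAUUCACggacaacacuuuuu
miR-409-5p: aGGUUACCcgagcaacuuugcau
miR-409-3p: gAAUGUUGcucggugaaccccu
miR-134-5p: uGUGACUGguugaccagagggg
miR-154-5p: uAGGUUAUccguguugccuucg
The deposited tables count reads per gene, so the 5p and 3p arms of a hairpin were summed and their shares are not known. Mature arms of the members were 19 to 25 bases long, and gene levels below are normalised read counts (CPM), scaled to the library's total on the strand of miRNA genes. Levels of different genes compare products of similar length, and a preference of small RNA cloning for some sequences over others was not tested.

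The cluster was expressed in both glands. Its members took 62291 reads or 2.78% of the miRNA reads of library 1 (95% Wilson interval 2.75 to 2.80%) and 124583 reads or 3.18% in library 2 (3.17 to 3.20%), a mean of 2.98 ± 0.289% (SD, n = 2). At least 10 reads in each library were found for 33 of the 39 members, or 84.6%, against 337 of all 2202 miRNA genes, or 15.3%. In whole tissue, fewer cells that express the cluster and less of it per cell cannot be told apart. The intervals treat each read as an independent draw and cover counting error only. Reads were not tied to single molecules by identifiers, so copies of a molecule would make the intervals too narrow.

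Library 1 held 7938596 reads in all, with 2244073 (28.3%) on the strand of a miRNA gene, and library 2 held 11132685 with 3912280 (35.1%). Reads mapped to several places, 28.4% and 27.5%, are in no gene count. The adrenal label was read against miRNAs known from defined cell types. The neuroendocrine genes Mir375, Mir7-1, Mir7-2 and Mir7b were all detected and held 4.18% and 4.25% of miRNA reads. Most of that sum was Mir375, at 37574 and 36561 CPM, while Mir7b had 3921 and 5543 CPM, Mir7-1 had 262 and 335, and Mir7-2 had 45.9 and 104. The libraries stood apart in others. Mir126a of the endothelium had 5.38% in library 1 and 12.1% in library 2, the red cell genes Mir451a and Mir144 together 0.0633% and 2.57%, and the hepatocyte gene Mir122 0.518% and 0.0491%. The smooth muscle and fibroblast genes (3 of 4 detected) held 2.89% and 4.18%, with Mir143 1.58-fold higher in library 2 and Mir214 1.64-fold higher in library 1. The leukocyte genes (4 of 4) held 0.109% and 0.0913%, with Mir142 1.80-fold higher in library 2 and Mir223 and Mir150 4.34-fold and 1.89-fold higher in library 1. Of 8 neuronal genes 2 were detected, Mir137 and Mir153, and 4 epithelial genes of 7 and 0 striated muscle genes of 5. The neuronal genes Mir124a-1, Mir124a-2, Mir124a-3 and Mir9-2 and the muscle genes Mir1a-1, Mir1a-2, Mir133a-1 and Mir133a-2 stood at 0 reads. All 8, and Mir7-1 and Mir7-2 above, share stretches of 20 bases with another miRNA gene. Reads that map to several places are not counted, which can lower such counts.

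A small number of members held most of the cluster's reads. Mir411 had 6266 CPM in library 1 and 10470 in library 2, a mean of 8368 ± 2973 CPM (SD, n = 2) and rank 26 among all miRNA genes. Mir379, the first gene of the cluster, had 6561 and 7831 CPM, a mean of 7196 ± 898 (SD, n = 2) and rank 29. The ranges of Mir411 and Mir379 overlapped, and Mir379 was the higher of the pair in library 1 and Mir411 in library 2. Together they took 46.2% of the cluster's reads in library 1 and 57.5% in library 2.

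Mir541 followed with 3974 and 4223 CPM, a mean of 4099 ± 176 (SD, n = 2). Mir382 had 3569 and 2644 CPM, a mean of 3107 ± 654 (SD, n = 2). Mir541 was above Mir382 in both libraries and both were below the leading pair in both. These 4 members held 73.4% and 79.0% of the cluster's reads, and only these had a mean above 1000 CPM.

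The next members lay close together. Mir409 had 1007 and 773 CPM (mean 890 ± 165, SD, n = 2), and with it the 5 leading members held 77.0% and 81.5% of the cluster's reads, a mean of 79.2 ± 3.15% (SD, n = 2). Mir487b had 1191 and 470 CPM (mean 831 ± 510, SD, n = 2). Mir134, the regulator of dendritic spines named above, had 684 and 795 CPM (mean 740 ± 78.3, SD, n = 2). The order of Mir409, Mir487b and Mir134 was not the same in the libraries, and their values overlapped.

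Mir376a had 526 and 625 CPM (mean 575 ± 69.6, SD, n = 2), Mir154 had 504 and 534 (519 ± 21.2) and Mir376c had 339 and 691 (515 ± 249). Mir376a exceeded Mir154 in both libraries, while Mir376c was below both in library 1 and above both in library 2. The 10 leading members held 88.7% and 91.2% of the reads, so the 29 others shared the remainder. Of the 100 most abundant miRNA genes by mean CPM, 7 belonged to the cluster.

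Below these, 10 further members had a mean of 100 CPM or more and 13 detected ones had less. In descending order the 10 were Mir299a, Mir369, Mir485, Mir300, Mir381, Mir668, Mir667, Mir329, Mir666 and Mir376b, from 353 ± 182 down to 107 ± 48.4 CPM (SD, n = 2). Mir485, known as a regulator of synapses, had 257 and 288 CPM. Mir494, Mir380, Mir1193, Mir543, Mir323, Mir495, Mir3072, Mir496a, Mir679, Mir410, Mir539, Mir377 and Mir412 followed, from 93.3 ± 36.9 to 16.3 ± 2.12 CPM (SD, n = 2). Mir410, after which the cluster is named, had 47.7 and 32.5 CPM and so stood near its lower end. The median detected member had 172 CPM in library 1 and 141 in library 2, beside 151 and 138 for the 304 other detected miRNA genes.

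The 6 members that were not detected held 5 reads in library 1 and 9 in library 2 together. Mir654 and Mir453 had 0 reads in both, which allows up to 1.34 CPM in library 1 and 0.767 CPM in library 2 at 3 reads. Mir1197 had 2 and 0 reads, Mir758 had 2 and 5, Gm27379 had 0 and 2, and Mir544 had 1 and 2. At this depth such members cannot be told from absent ones.

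**Figure D1:**
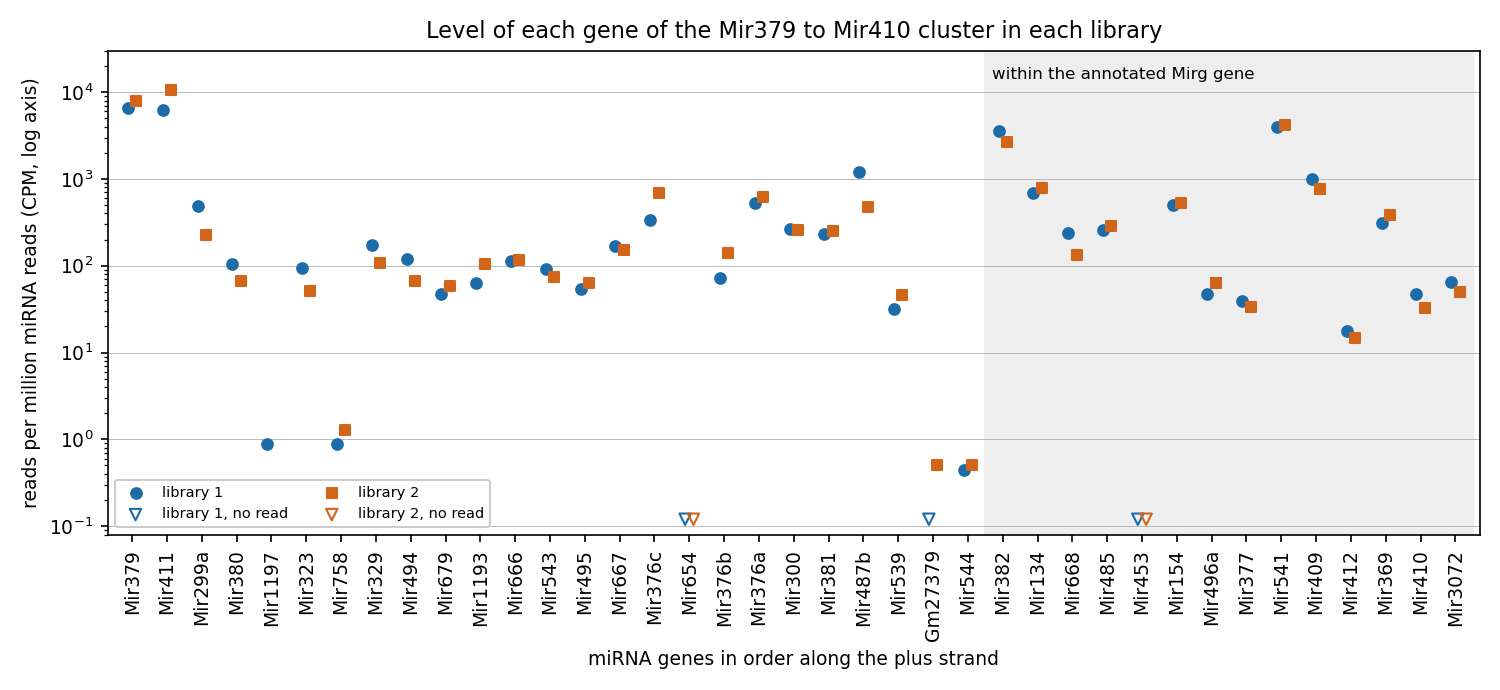
Level of each of the 39 members in CPM (log axis), in order along the plus strand, with circles for library 1, squares for library 2, open triangles for members with 0 reads and shading for members within the annotated Mirg gene. The 4 members above 1000 CPM on average are Mir379 and Mir411 at the left edge and Mir382 and Mir541 within Mirg, and Mir412 is the lowest detected member.

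Level showed little relation to position along the strand. Across the 33 detected members, log2 level and distance from Mir379 had a Pearson r of -0.10, given as a description because the members share both libraries. The plot of levels along the strand shows high members at the start of the cluster and again within the Mirg gene. Mirg, a noncoding RNA gene annotated from base 109729764 to 109749460, holds 14 members, of which 13 were detected, and 25 lie before it, of which 20 were detected. The members in Mirg gave 38.8% of the cluster's reads in library 1 and 31.3% in library 2. Within Mirg 9 members overlap an annotated exon, among them Mir382 and Mir134, and 5 lie in introns, Mir453, Mir154, Mir496a, Mir541 and Mir409. Both kinds held abundant and scarce genes: Mir541 and Mir453 are intronic, and Mir382 and Mir412 overlap exons.

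Adjacent detected members often stood far apart in level. Over the 32 adjacent pairs, with a median gap of 656.5 bases, the median fold between neighbours was 2.69 in library 1 and 2.42 in library 2. In 16 pairs it was over 2-fold and in 6 over 10-fold in both libraries. Mir409 and Mir412, only 52 bases apart, were among these, at 1007 and 773 CPM against 17.8 and 14.8, or 56.5-fold and 52.2-fold. Mir412 lies 49 bases before Mir369, which was 17.4-fold and 26.3-fold above it. Mir412 was thus a low member between high ones in both libraries. The hairpins of Mir409 and Mir412 are shown because they lie next to each other in the same transcript, with the mature arms in capitals.
Mir409: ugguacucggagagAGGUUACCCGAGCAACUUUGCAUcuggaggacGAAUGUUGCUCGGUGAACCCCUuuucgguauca
Mir412: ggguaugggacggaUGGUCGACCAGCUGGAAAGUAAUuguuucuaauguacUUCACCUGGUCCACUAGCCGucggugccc
The other contrasts of this size began with Mir541, which exceeded Mir377 by 103-fold and 127-fold. Mir382 exceeded Mir539 by 111-fold and 56.8-fold, and Mir411 exceeded Mir299a by 13.0-fold and 46.7-fold. Mir487b exceeded Mir539 by 37.1-fold and 10.1-fold.

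Some hairpins of the cluster resembled one another. In global alignment each of the 36 hairpins was closer to some other member than to any of the 18 matched hairpins from the proximal part of the domain. The best match within the cluster had a median identity of 68.6%, and the best match to a proximal hairpin 52.5%, though the first is the best of more candidates. Over all 630 pairs of members the median identity was 50.6%, and over the 648 pairs of a member with a proximal hairpin 47.5%. At 70% or more stood 11 pairs of members and 0 of the mixed pairs.

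Short stretches recurred too. The letters UACUUG, searched on both strands, occurred in 10 of the 36 hairpins (27.8%) and in 22 of the 969 RefSeq hairpins outside the cluster (2.27%). UUCGCUU occurred in 10 members and 2 others (0.206%), and CAGUAUC in 6 members (16.7%) and 12 others (1.24%). GGUCCAC was in 5 members (13.9%) and 10 others (1.03%), and GGUUGAC in 5 members and 1 other (0.103%). None of these 5 motifs was found in the 18 proximal hairpins. The motifs were chosen from the members' own sequences, so these counts describe the hairpins and are no test.

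The most alike pairs did not have like levels in general. Mir376c and Mir376b, at 80.7% identity, had means of 515 and 107 CPM, and Mir300 and Mir381, at 73.8%, had 260 and 241. Mir411 and Mir758 were 73.5% identical, yet Mir411 had 14061 and 40962 reads and Mir758 had 2 and 5. Mir379 and Mir380 were 71.2% identical and had means of 7196 and 85.3 CPM. Similar hairpins thus included both near-equal and far unequal members. The hairpins of Mir379, Mir411 and the Mir376 genes are shown for these comparisons, with the mature arms that RefSeq lists in capitals. In the Mir411 hairpin, UACUUG lies near the 5′ end and CAGUAUC near the 3′ end.
Mir379: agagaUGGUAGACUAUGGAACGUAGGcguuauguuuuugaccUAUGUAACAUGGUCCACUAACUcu
Mir411: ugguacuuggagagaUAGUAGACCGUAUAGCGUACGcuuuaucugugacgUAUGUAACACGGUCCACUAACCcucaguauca
Mir376c: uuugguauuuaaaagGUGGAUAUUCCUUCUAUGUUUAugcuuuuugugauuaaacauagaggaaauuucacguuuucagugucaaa
Mir376b: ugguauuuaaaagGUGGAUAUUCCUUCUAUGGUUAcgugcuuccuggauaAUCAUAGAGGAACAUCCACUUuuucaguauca
Mir376a: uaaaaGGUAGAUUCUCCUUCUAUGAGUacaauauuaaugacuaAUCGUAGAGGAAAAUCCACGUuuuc
Hairpins of the miR-376 group are known substrates of A-to-I editing by ADAR enzymes, which can alter a seed; gene counts do not show editing. In the sequences above miR-376c-5p and miR-376b-5p share an unbroken run of 18 bases that includes the seed, while miR-376a-5p has another seed, GUAGAUU.

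**Figure D2:**
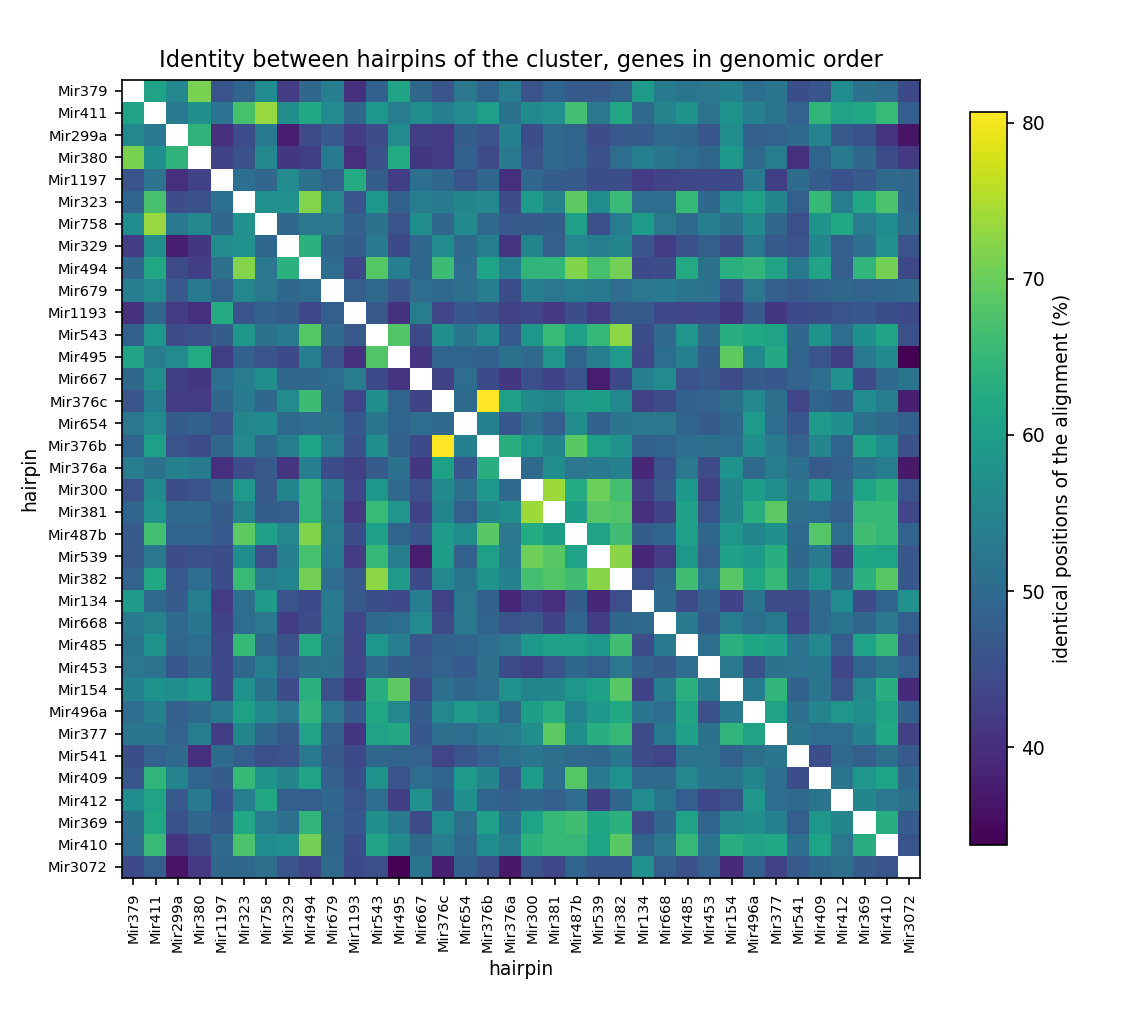
Identity (% of aligned positions) between each pair of the 36 hairpins matched in RefSeq, with genes in genomic order on both axes and the diagonal blank. The brightest cells off the diagonal are Mir376c with Mir376b at 80.7%, Mir300 with Mir381 at 73.8% and Mir411 with Mir758 at 73.5%.

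Members of the cluster were short hairpins of 61 to 121 bases (median 79), with a median GC content of 43.4%, beside 51.9% for the 969 other hairpins. Predicted folding energies ran from -46.7 to -16.6 kcal/mol. Across the 32 detected members with a hairpin, log2 level had an r of -0.11 with GC content and 0.20 with folding energy, so neither sorted abundant from scarce members. Of the 71 arms 42.3% begin with U, beside 41.2% of RefSeq arms elsewhere.

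Most members differed between the libraries by more than counting error, and few by much. In a two-sided exact binomial test on the counts, with edgeR's TMM scaling and Benjamini-Hochberg adjustment over the 411 genes with 10 or more reads summed, 25 of the 33 tested members (75.8%) had an adjusted p under 0.05, beside 58.4% of all tested genes, a set that also holds genes with fewer reads than any tested member. With a fold of 1.5 or more as well, 5 members were higher in library 2 (15.2%, background 15.1%) and 5 higher in library 1 (15.2%, background 16.3%), and 23 were not called. The members called were near the share of all tested genes in both directions. All 33 detected members were tested, and none passed the filter through 1 library alone.

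**Figure D3:**
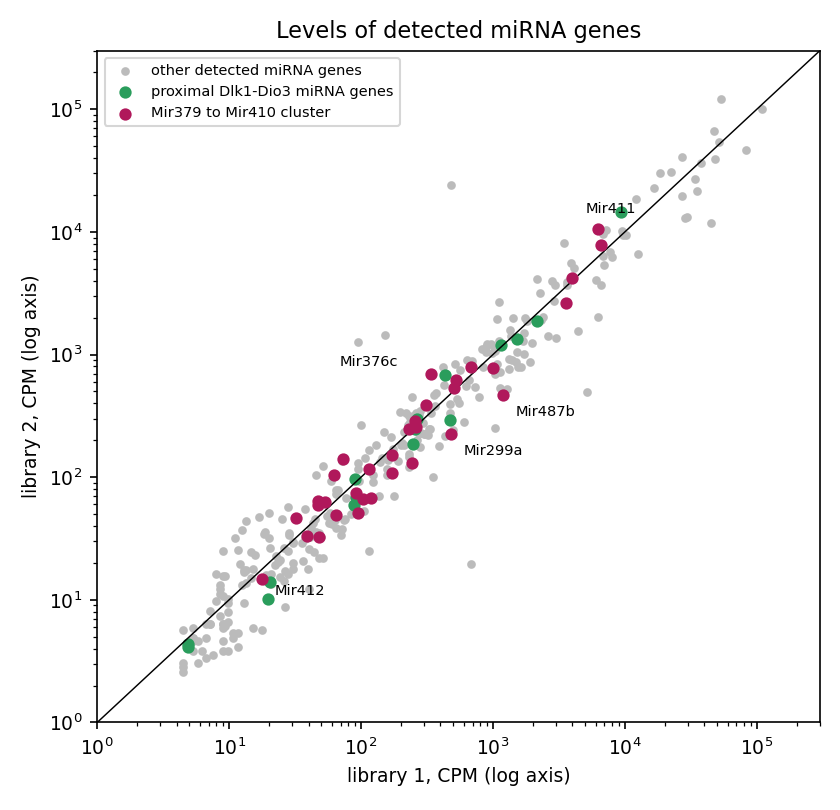
Level in library 2 against library 1 (CPM, both axes log) for the 337 miRNA genes with 10 or more reads in each library, with cluster members in crimson, proximal Dlk1-Dio3 genes in green, other genes in grey and the line of equal levels. Members run along the line from Mir412 to Mir411, with Mir376c above it and Mir487b and Mir299a below.

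The members largely kept their order from library to library. Over the 33 detected members the log2 levels of the libraries correlated with r = 0.967 (Pearson) and rho = 0.950 (Spearman), and over the 304 other detected genes the r was 0.969. The log2 ratio of library 2 over library 1, with 0.5 read added, had a median of 0.12 over the members and -0.07 over all 411 tested genes. Its SD was 0.585 over the members, 0.436 over the 16 detected proximal genes of the domain and 0.915 over all tested genes. The last set also holds genes with fewer reads than any tested member. Scaling by library size alone moved every ratio by -0.09 and DESeq2 size factors by 0.06, and of all tested members only Mir300, at 0.06, changed sign. Detected members in Mirg had a median of -0.14 (n = 13) and those before it 0.15 (n = 20).

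Of the members higher in library 2, Mir376c rose from 339 to 691 CPM and Mir376b from 72.6 to 141. The test gave 2.17-fold for Mir376c (exact binomial test, adjusted p = 8.4e-89) and 2.06-fold for Mir376b (adjusted p = 4.7e-17). These are the 2 genes of the Mir376 group that share a 5p seed. Mir376a, the gene next to them, had 526 and 625 CPM and was 1.26-fold higher, under the limit. Together the 3 genes took 3.38% of the cluster's reads in library 1 and 4.58% in library 2.

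Mir411 was 1.77-fold higher in library 2, a log2 ratio of 0.83 (95% counting interval 0.80 to 0.85), and its adjusted p in the exact binomial test was too small for the computation to represent. Mir1193 had 62.8 and 105 CPM, a log2 ratio of 0.82 (0.54 to 1.09; exact binomial test, adjusted p = 4.5e-09). Mir379, whose 5p seed Mir1193 shares and whose 3p seed Mir411 shares, was 1.27-fold higher, under the limit. Mir539 had 32.1 and 46.5 CPM and was 1.53-fold higher (exact binomial test, adjusted p = 0.00377), just past the limit. The interval of Mir539, 0.22 to 1.01 on the log2 scale, spans that limit, and its call was lost with library size scaling. With 72 reads in library 1 it was not tested when each library had to hold 100 reads or more. With 0 reads in the unstranded column it was not tested there.

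Of the members higher in library 1, Mir487b fell from 1191 to 470 CPM in library 2, a log2 ratio of -1.25 (-1.34 to -1.17; exact binomial test, adjusted p = 3.5e-184). Mir299a had 482 and 224 CPM, 2.02-fold higher in library 1 (exact binomial test, adjusted p = 1.1e-53). Both were more than 2-fold apart. Mir323 had 94.9 and 50.6 CPM, Mir668 had 242 and 131, and Mir494 had 119 and 67.2, at 1.77-fold, 1.73-fold and 1.67-fold. The exact binomial test gave these 3 adjusted p-values of 3.0e-08, 2.9e-18 and 1.2e-08. Mir329 at 1.49-fold and Mir380 at 1.47-fold, also higher in library 1, lay just under the limit. Mir494 was not called when the filter on low counts was dropped.

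Neighbours moved in opposite ways at several places. Mir411, higher in library 2, lies 381 bases before Mir299a, higher in library 1. Mir487b, higher in library 1, lies 714 bases before Mir539, higher in library 2. In the run from Mir299a to Mir494 the 5 detected members all had negative log2 ratios, from -1.02 for Mir299a to -0.55 for Mir380. That run was picked out after its values were seen. Across the detected members the ratio had an r of -0.01 with distance from Mir379, and of -0.28 with GC content, beside -0.23 with GC content for 259 other detected genes. With folding energy per base the ratio had an r of 0.42 and a rho of 0.42 over 32 members, given like the others as a description.

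**Figure D4:**
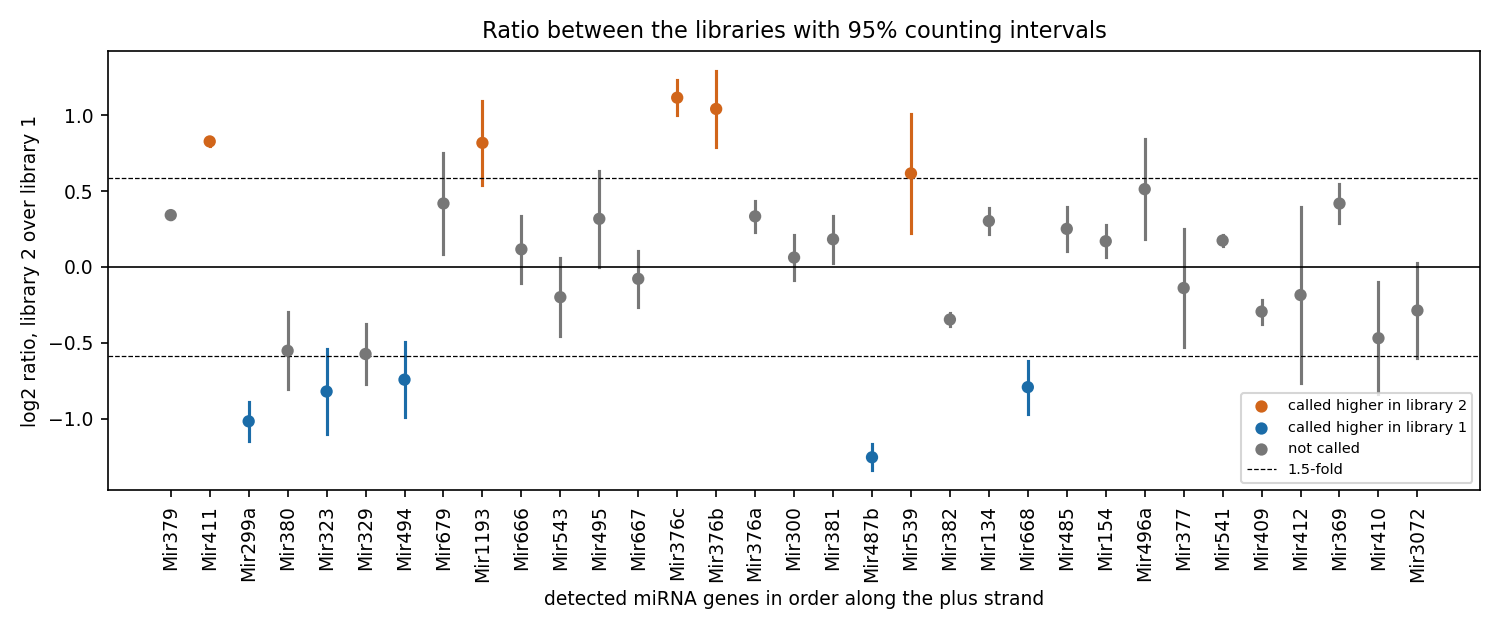
Log2 ratio of library 2 over library 1 for the 33 detected members in genomic order, with bars for 95% counting intervals, orange for members called higher in library 2, blue for those called higher in library 1, grey for members not called and dashed lines at 1.5-fold. The 5 orange and 5 blue members lie from Mir411 to Mir668, and no member from Mir485 to Mir3072 was called. Mir668 is the only called member within Mirg, and Mir376c and Mir487b lie farthest from 0.

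Markers of other cells moved beside these ratios. From library 1 to library 2 the endothelial Mir126a rose from 5.38% to 12.1% of miRNA reads, the red cell genes from 0.0633% to 2.57%, and the hepatocyte gene Mir122 fell from 0.518% to 0.0491%, while the neuroendocrine genes summed to 4.18% and 4.25%, with Mir375 near equal and Mir7b, Mir7-1 and Mir7-2 each higher in library 2. The neuronal genes held 0.0435% and 0.0838%, nearly all from Mir137. Their part in the ratios of the members was not tested.

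The proximal genes of the same domain, 20 miRNA genes near Meg3, Rtl1 and Rian with 16 detected, took 36394 and 81624 reads, or 1.62% and 2.09% of the miRNA reads. The Mir379 to Mir410 cluster thus had 1.71 times the reads of the proximal genes in library 1 and 1.53 times in library 2, a mean of 1.62 ± 0.131 (SD, n = 2). Without genes that share 20 bases with another miRNA gene, which removes Mir411, the ratio was 1.23 in library 1 and 0.962 in library 2, so which of the groups was higher then differed between the libraries. Mir127, which lies opposite the imprinted gene Rtl1, was the most abundant of the proximal genes with 9398 and 14498 CPM (mean 11948 ± 3607, SD, n = 2), above Mir411 in both libraries. Mir433 had a mean of 2015 ± 194 CPM and Mir431 of 1428 ± 137 (SD, n = 2). Of the 16 tested proximal genes 2 were called higher in library 2, Mir127 and Mir341, and 2 higher in library 1, Mir540 and Mir1188. Their median log2 ratio was -0.11. Mir335, Mir483, Mir675, Mir296 and Mir298 of other imprinted loci held 0.905% and 1.09% together.

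Some counts are uncertain through shared letters. A stretch of 20 bases in common with another miRNA gene was found for 5 members, Mir411, Mir758, Mir376c, Mir376b and Mir487b (12.8%), beside 50.02% of the other miRNA genes. In each case the partner was another member of the cluster, Mir758 for Mir411 and Mir376b for both Mir376c and Mir487b. A read that fits both partners is in no count. Within the mature arms matched in RefSeq the runs shared with these partners were shorter, at most 18 bases between miR-376c-5p and miR-376b-5p and 12 between miR-411-3p and Mir758. The 3p arms of Mir376c and Mir487b were not matched. How far the counts were lowered was not tested. All 4 tested members of this group, Mir411, Mir376c, Mir376b and Mir487b, were called, beside 10 of all 33 tested members, which include these 4. Of all 411 tested genes, 15.1% were called higher in library 2 and 16.3% higher in library 1. Mir758 had too few reads to be tested. Whether shared letters bear on these calls was not tested.

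Strand mattered for 5 members that have an annotated miRNA gene opposite them, Mir299a, Mir380, Mir376a, Mir539 and Mir409. By strand they held 4826 and 6789 reads, 7.75% and 5.45% of the cluster, and in the unstranded column 0. The row for ambiguous reads of that column held 3.84% and 7.49% of all reads. The opposed genes held 1 read in each library, at Mir299b opposite Mir299a. The Mir299a hairpin is shown because 21 of its bases, in capitals at positions 8 to 28 from its 5′ end, also occur in its own reverse complement.
Mir299a: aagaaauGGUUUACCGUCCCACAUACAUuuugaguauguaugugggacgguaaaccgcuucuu
The capitals cover bases 2 to 22 of miR-299a-5p. A read made of those letters alone fits either strand of the locus, so the counts of Mir299a, and its ratio between the libraries, rest on how such reads were assigned.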

How the data were processed

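MicroRNA libraries of 2 adrenal glands were analysed. The authors deposited raw read counts per miRNA gene for each library, mapped to mm10 per the labels and assigned to GENCODE M21 per the deposited text, with no normalization. How reads were trimmed, aligned and counted is not given in the sources used here. No header names the columns, and the column with more reads of the stranded pair was taken as the strand of the gene. Rows without a gene did not enter library sizes: in libraries 1 and 2 unmapped reads made up 33.8% and 27.8%, and reads outside miRNA genes 9.57% and 9.53%.

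CPM divides by all reads counted on a miRNA gene's strand, and 1 read is worth 0.446 CPM in library 1 and 0.256 in library 2. With 1 group no quasi-likelihood test could be run. Genes with a sum of at least 10 reads entered an exact binomial test, two-sided and conditional on that sum, with TMM effective library sizes from edgeR 4.0.16 (R 4.3.3), Benjamini-Hochberg adjustment and limits of 0.05 and 1.5-fold. The script was tested on simulated data. Ratios add 0.5 read. The test ran in scipy 1.17.1 with statsmodels 0.14.6, under Python 3.11.15 with pandas 2.3.3 and numpy 2.4.6, and plots in matplotlib 3.10.9. Hairpins were aligned globally with Biopython 1.88 (match 1, mismatch -1, gap -2, extension -1) and folded with RNAfold 2.7.2. Stretches of 20 shared bases were searched, on both strands, among GENCODE miRNA transcripts only. Alternatives were DESeq2 1.42.0 size factors, library size scaling, other filters, fold limits and totals, the unstranded column and each library alone.

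Members, lists and tests were chosen with earlier results of these data known. Named in full are the 10 members with the highest mean CPM, the 5 called members with the largest ratio in each direction with 200 or more reads summed, and members of shared seed groups. Named outside the cluster are the 3 most abundant proximal genes, the fixed markers and, chosen after their values were seen, Mir341, Mir540 and Mir1188.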

Additional observations from a re-analysis of the deposited data

How the results depend on the processing

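The cluster's share of miRNA reads, 2.98%, became 3.39% with the unstranded column, 2.33% without genes that share 20 bases and 2.29% with all reads mapped to 1 place as the total. It ran from 2.78% to 3.18% with each library alone. The share of the 5 leading members, 79.2%, became 84.7% with the unstranded column and ran from 77.0% to 81.5% over the libraries. The ratio to the proximal genes, 1.62, became 1.09 without genes that share 20 bases and ran from 1.53 to 1.71. Calls of 5 and 5 became 2 higher in library 2 and 2 higher in library 1 at 2-fold (6.06% of members each, beside 8.03% and 7.79% of all tested genes), and 15 and 10 with no fold limit (45.5% and 30.3%, beside 29.4% and 29.0%). By library size alone they were 4 and 7 (12.1% and 21.2%, beside 12.2% and 19.5%), so 36.4% of the called members were higher in library 2 in place of 50%. With no filter they were 6 and 4 (16.2% and 10.8%, beside 11.3% and 5.73% of 751 tested genes), with every ratio moved by 0.17. The tested genes then also included those with the fewest reads. The median log2 ratio of the members ranged from 0.03 by library size alone to 0.28 with no filter. Over the other scalings, filters and the unstranded column, 4 of the 5 members higher in library 2 kept their call, all but Mir539. Of the 5 higher in library 1, 3 kept it, all but Mir299a and Mir494. Mir539 and Mir299a had no unstranded count, so they were not tested in that column. Mir539 was also not tested at 100 reads, and lost its call by library size alone. Detected members numbered 28 in the unstranded column, 33 at 5 reads and 30 at 100. No paired analysis was possible because both libraries are of 1 group. With 2 libraries no spread between animals enters the test, and members under 10 reads were not detectable at this depth.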
